A study of Mus musculus with 4 samples.

Results

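The immediate early and heat shock genes followed here were 34 genes listed by symbol, 23 immediate early genes and 11 chaperones, of which 33 were found among the 33456 genes of the deposited matrices. Cebpd was not analysed here, which left 22 immediate early members. The members are transcripts that many cell types can raise within minutes, and the question was whether their levels in dissociated dorsal root ganglion (DRG) differed with sciatic nerve injury or with the number that the labels give to a library. Single cell RNA-seq was performed on 4 libraries of C57BL/6 mouse DRG, 2 from uninjured mice (control) and 2 from mice 3 days after a sciatic nerve crush (injury), all aged 8-12 weeks. The labels name L4 ganglia and the methods of the study name L4 and L5, so a sample pools whole ganglia and, after injury, axotomized neurons with the cells around them. Ganglia of both conditions were dissociated with papain and collagenase and sorted for live cells before capture, so the controls share that handling. In the labels 1 control and 1 injury library carry the number 2, and the unnumbered ones are called control 1 and injury 1 here. The study describes its libraries as biological replicates, with cells of several mice pooled in each batch, but the sources used here do not say which libraries made up a batch or that the number marks one. Control 2 and injury 2 are called the libraries numbered 2 below, and control 1 and injury 1 those numbered 1.

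Immediate early genes are transcribed without new protein synthesis once a cell is stimulated, and most of their products are transcription factors or feedback inhibitors. AP-1 is a dimer of Fos and Jun family proteins, EGR, NR4A and KLF proteins bind DNA on their own, and Dusp, Socs3, Nfkbia and Zfp36 switch off kinases, cytokine receptors, NF-kappaB and unstable mRNAs. Heat shock genes encode chaperones, which HSF1 induces when proteins unfold, although several of them, such as Hspa8 and Hsp90ab1, are made in unstressed cells as well. Enzymatic dissociation at body temperature is known from other tissues to raise both groups.

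Raw counts of unique molecular identifiers (UMIs, 1 per captured RNA molecule) were added up over the cells of a type in a library, and a level is given as counts per 1000000 (CPM), the UMIs of a gene per 1000000 UMIs of that type in that library. Cells within the limits of the study numbered 6095 of 6975 barcodes, and 5124 of them could be assigned to 1 of 11 types by marker genes. The 7 types with at least 10 cells in each library were compared, which were the satellite glial cell-like (SGC-like), Schwann-like, macrophage-like, endothelial-like, fibroblast-like, mural-like and neutrophil-like cells. Each had 2 to 6 of its own markers and 0 of any other type among its 10 leading genes. The same markers assigned the cells, so this count is no independent check of the type names. The SGC-like cells of control 1 numbered 54, and the median UMI count per cell was 2775 and 3110 in control and injury 1 and 4054 and 4845 in control and injury 2. Between 1 and 6 barcodes were shared by any pair of libraries. Since mice were pooled, the spread below is that between libraries and not between animals, and 2 libraries against 2 allow no exact permutation p under 0.333.

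The start regions of several members were read from RefSeq (build GRCm38.p6) to show what the chaperones and the immediate early genes have in front of them. A start region was found for 27 of the 33 members, and the 250 bases before each start were searched on both strands for the heat shock element as GAANNTTC or TTCNNGAA, the cAMP response element (CRE) as TGACGTCA, the AP-1 site as TGANTCA, the TATA box as TATAAA and the CArG box bound by serum response factor. The 2 forms of the heat shock element can overlap. The last 170 bases before the start are shown for 6 members, with the matches in capitals.

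Hspa1a, chr17:34972157-34972326, minus strand: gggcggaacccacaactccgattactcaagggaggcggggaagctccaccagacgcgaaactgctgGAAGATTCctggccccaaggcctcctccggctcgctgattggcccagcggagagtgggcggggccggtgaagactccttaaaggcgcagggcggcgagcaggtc
Hspa1b, chr17:34959239-34959408, minus strand: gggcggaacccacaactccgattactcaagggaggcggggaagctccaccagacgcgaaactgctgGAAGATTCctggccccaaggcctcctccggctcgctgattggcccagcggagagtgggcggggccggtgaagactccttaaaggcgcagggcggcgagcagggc
Hspe1, chr1:55087978-55088147, plus strand: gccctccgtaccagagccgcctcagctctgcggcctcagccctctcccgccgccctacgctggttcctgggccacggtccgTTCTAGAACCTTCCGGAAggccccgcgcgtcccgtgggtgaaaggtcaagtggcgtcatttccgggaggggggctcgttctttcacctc
Fos, chr12:85473720-85473889, plus strand: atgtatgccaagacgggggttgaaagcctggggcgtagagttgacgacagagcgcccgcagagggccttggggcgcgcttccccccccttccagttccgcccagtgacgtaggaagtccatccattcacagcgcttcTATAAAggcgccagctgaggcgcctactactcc
Btg2, chr1:134079156-134079325, minus strand: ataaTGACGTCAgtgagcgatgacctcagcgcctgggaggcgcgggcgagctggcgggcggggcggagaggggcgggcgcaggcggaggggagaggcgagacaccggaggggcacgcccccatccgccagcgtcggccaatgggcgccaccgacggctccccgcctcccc
Dusp1, chr17:26508473-26508642, minus strand: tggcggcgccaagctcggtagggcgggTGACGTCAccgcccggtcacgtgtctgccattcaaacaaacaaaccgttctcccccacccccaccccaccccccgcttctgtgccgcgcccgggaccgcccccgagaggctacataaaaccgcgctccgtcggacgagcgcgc

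Of the 8 chaperones with a start region, 6 held GAANNTTC, 3 held TTCNNGAA and 7 held either. Among the 19 immediate early members the first form was found in Fosl2 alone and the second in 0. Over all 32851 start regions searched, 6.69% held the first form and 7.17% the second. The Hspa1a and Hspa1b stretches were alike at 169 of 170 bases and had the element 104 bases before the start, and since the transcripts are near-identical as well, the reads of these paralogs may have been split between them and their separate values are uncertain. The start regions of Hspe1 and Hspd1 lie head to head and their matches are the same bases. The CRE was found in Btg2 and Dusp1, against 1.55% of all regions, the TATA box in Fos and Btg1, against 12.4%, the CArG box in Zfp36, against 1.47%, and the AP-1 site in 0 members, against 6.75%. A match describes these letters only. Other forms of a motif, bases further out and members without a start region, among them Egr1 and Ier2, were not searched.

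The immediate early members together were lower in both libraries numbered 2 than in both libraries numbered 1 in each of the 7 types. The chaperones were lower in the same order in 5 types, by smaller ratios, overlapped in macrophage-like cells and were higher in neutrophil-like cells. In SGC-like cells the summed level of the 22 immediate early members was 13809.8 and 7191 CPM in control and injury 1 and 3701 and 4537 CPM in control and injury 2. In mural-like cells, the smooth muscle cells and pericytes of vessels, the sums were 35204 and 39795 CPM against 18364 and 13246 CPM. Both libraries numbered 1 were thus above both numbered 2, with a ratio of means of 2.55 in SGC-like and 2.37 in mural-like cells, and the injured library lay below the control in SGC-like cells but above it in mural-like cells among those numbered 1. The ratio was 2.1 in neutrophil-like, 1.98 in macrophage-like, 1.86 in fibroblast-like, 1.61 in endothelial-like and 1.46 in Schwann-like cells. For the 11 chaperones the same ratio was 1.09 to 1.30 in 6 types and 0.70 in neutrophil-like cells. By condition, the ratio of the summed immediate early level in injury to that in control was 0.65 in macrophage-like, 0.67 in SGC-like, 0.77 in fibroblast-like, 0.88 in Schwann-like, 0.97 in neutrophil-like, 0.99 in mural-like and 1.02 in endothelial-like cells.

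**Figure D1:**
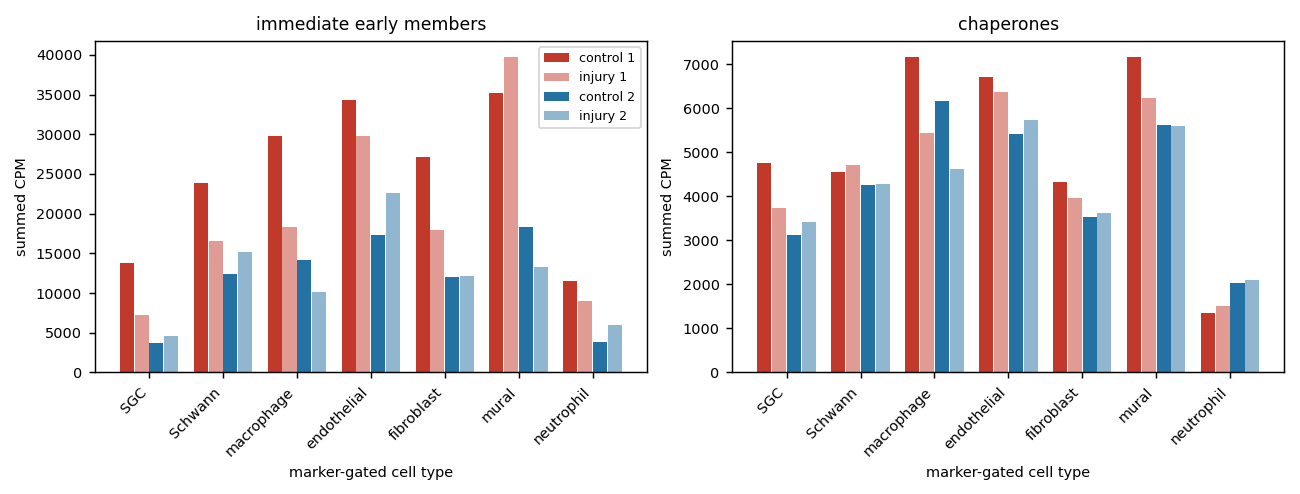
Summed CPM of the 22 immediate early members (left) and the 11 chaperones (right) in each library, by marker-gated cell type. Each bar is 1 library, red for libraries numbered 1 and blue for those numbered 2, paler for injury. On the left both red bars stand above both blue bars in every type.

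A test per gene on the same counts called members lower in each type except macrophage-like cells. Over the 7 types, 206 member and type pairs passed the filter on low counts, and 49 were called lower and 1 higher in the libraries numbered 2 (edgeR's quasi-likelihood test, Benjamini-Hochberg adjusted p under 0.05 over all genes tested). Of the 141 pairs of immediate early members, 47 were lower and 0 higher, and 131 had a negative fold change. Of the 65 chaperone pairs, 2 were lower and 1 higher. The calls fell on 20 genes. The number of lower member calls fell without injury 2 and rose without injury 1, and the calls over all genes moved the same way. Without control 1 or control 2 the number of lower member calls changed less. Each such fit left 1 library alone in a group.

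By type, 12 of 31 members tested were lower in SGC-like cells, against 1.08% of all genes tested, and 10 of 31 in mural-like cells, against 0.800%. In fibroblast-like cells 8 of 31 were lower, against 0.666%, and in endothelial-like cells 2 of 31, against 0.325%. In these 4 types the share of members called lower was above that of all genes. The members and lists were chosen with earlier results of these data known, so such shares, here and below, are descriptive only. The calls depended on the gate, since with a gate of at least 5 markers and a lead of 4 there were 0 in SGC-like and 0 in mural-like cells and 5 in fibroblast-like cells. Calls over all genes in either direction fell as well, from 210 of 8622 to 12 of 7225 in SGC-like cells. In mural-like cells they fell from 89 of 4751 to 2 of 4026. That gate kept 17 SGC-like cells of control 1 and 13 mural-like cells of injury 2. In Schwann-like cells 4 of 28 were lower, against 1.78%. Neutrophil-like cells differed between numbers across many genes, with 13 of 22 members lower against 14.4% of all genes and 1 higher against 12.3%. In macrophage-like cells 0 of 32 members were called, against 0.0134% of all genes lower and 0.0134% higher, although 15 of the 32 had an unadjusted p under 0.05 in edgeR, against 8.66% of all genes, and DESeq2 called 5 lower. The count in these cells was 11 with no filter on low counts and 16 with the condition as a covariate. Over all genes, in either direction, these settings called 317 of 15080 and 385 of 7436, and DESeq2 called 65 of 7436. The median log2 fold change of the immediate early members there was -1.06, close to the -1.20 of SGC-like and the -1.08 of mural-like cells, while the median of all genes tested lay between -0.03 and 0.01 in each type.

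The calls of a type turned on different libraries. A fit without 1 library leaves 1 library alone in a group, so its calls are not counted here. Without injury 2 or control 2, member calls and calls over all genes both became fewer in SGC-like, Schwann-like and fibroblast-like cells. Without control 1 both became fewer in neutrophil-like cells and in mural-like cells, where injury 2 held 23 cells and control 2 held 46. In endothelial-like and macrophage-like cells both became more frequent without control 1 or injury 1. Losses of single calls given below are to be read beside these. No member called in the full set changed sign when a library was left out.

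The separation by number could also be read from the libraries without a test. In macrophage-like cells 18 of 21 immediate early members tested were lower in both libraries numbered 2 than in both numbered 1, against 11.3% of all genes. In SGC-like cells the count was 17 of 20 against 25.2%, in mural-like cells 17 of 21 against 22.9%, and in fibroblast-like cells 16 of 21 against 15.8%. These counts were above the share of all genes in each case. In endothelial-like cells 14 of 21 separated this way against 17.9%, in neutrophil-like cells 13 of 17 against 29.0%, and in Schwann-like cells 12 of 20 against 28.7%. Dusp6, a phosphatase of ERK kinases, was higher without overlap in macrophage-like and endothelial-like cells, where 27.7% and 26.4% of all genes were, and Dusp1 was higher in Schwann-like cells. Among the chaperones, 5 of 10 were lower without overlap in endothelial-like, 4 of 10 in fibroblast-like, 4 of 11 in SGC-like, 3 of 8 in Schwann-like, 3 of 11 in macrophage-like and 2 of 10 in mural-like cells, and the last share was below the 22.9% of all genes. Chaperones that were higher without overlap were Hspa8, Hsp90aa1 and Hsp90ab1 in neutrophil-like cells (3 of 5, against 37.8% of all genes), Hsp90aa1, Hsp90ab1 and Hsph1 in mural-like cells (3 of 10, against 22.9%), Hspb1 and Hsph1 in fibroblast-like cells (2 of 10, against 32.0%) and Hspa1a and Hspa1b in endothelial-like cells (2 of 10, against 26.4%).

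**Figure D2:**
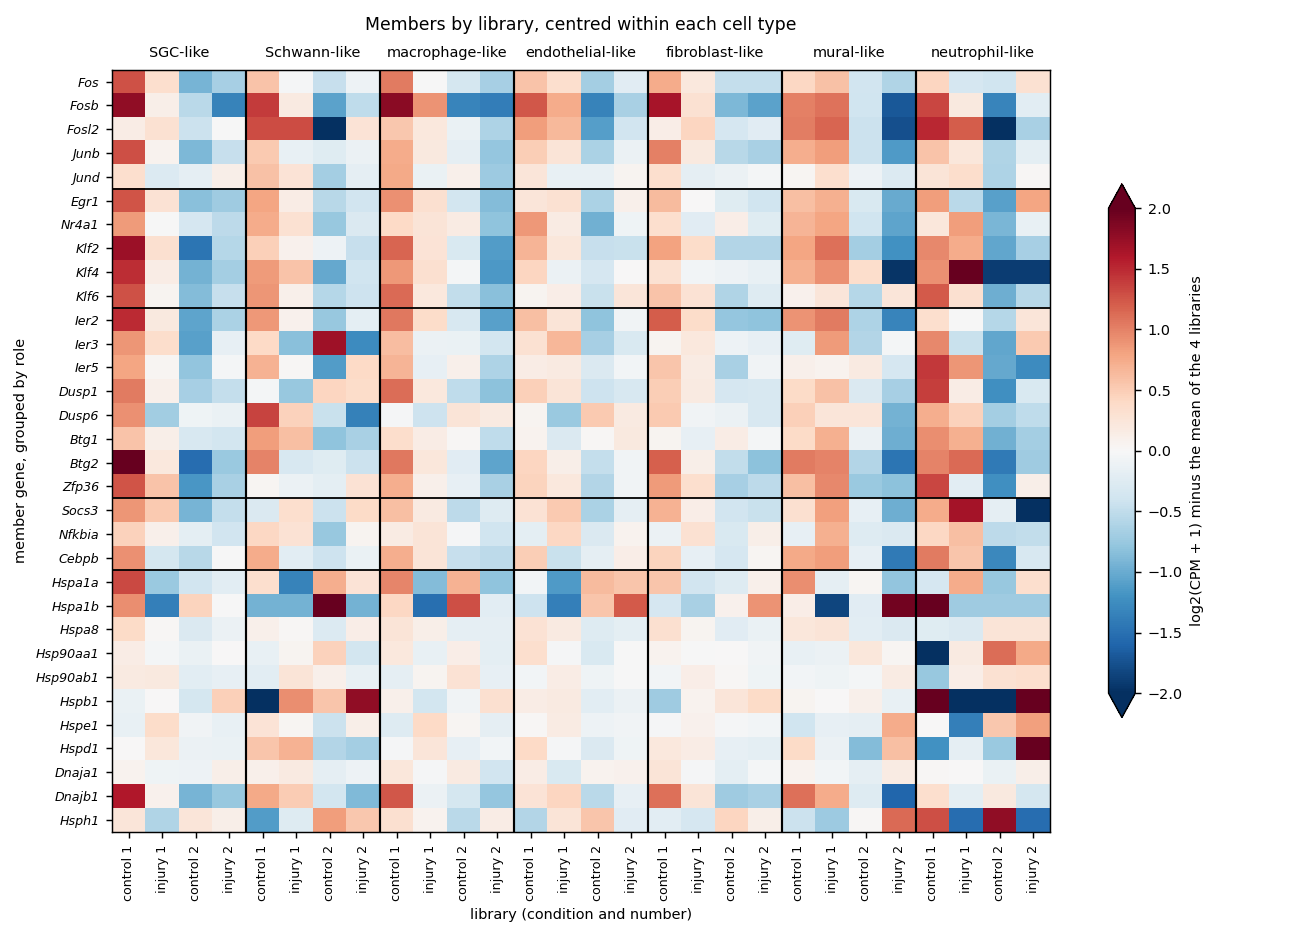
Heat map of log2(CPM + 1) of 32 members in each library (columns, 4 libraries in each of 7 cell types), centred on the mean of the 4 libraries of the type. Rows are grouped by role, with Egr3 left out as too low to test. Red marks a level above the mean of that type, and most immediate early rows are red under control and injury 1 and blue under control and injury 2, whereas most chaperone rows are pale.

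AP-1 subunits were among the most abundant members. Fos, the inducible partner in AP-1, had 4695 and 2465 CPM in control and injury 1 and 1019.9 and 1229 CPM in control and injury 2 in SGC-like cells, a log2 fold change between numbers of -1.54 ± 0.24 (SE, edgeR adjusted p = 0.00159). In mural-like cells it had 8077 and 9095 CPM in control and injury 1 and 4648 and 4031 CPM in control and injury 2, a log2 fold change of -0.98 ± 0.19 (SE, edgeR adjusted p = 0.0374). Both libraries numbered 2 were lower than both numbered 1 in these types, and in the other 5 the log2 fold change of Fos was negative too but was not called, with the smallest change of -0.30. In macrophage-like cells the level was 5307 and 2566 CPM in control and injury 1 and 2036 and 1627 CPM in control and injury 2. The Fos call in SGC-like cells was lost without control 2 or injury 2, and that in mural-like cells without control 1 or injury 2.

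Fosb, a close relative of Fos, had the most calls of the subunits together with Junb, 4 each. In fibroblast-like cells Fosb had 652 and 256 CPM in control and injury 1 and 110.2 and 98.3 CPM in control and injury 2, a log2 fold change of -2.19 ± 0.35 (SE, edgeR adjusted p = 0.0321). In endothelial-like cells it had 315 and 221 CPM in control and injury 1 and 51.8 and 84 CPM in control and injury 2, a log2 fold change of -2.03 ± 0.26 (SE, edgeR adjusted p = 0.00678). The endothelial call was kept when any 1 library was left out, whereas the fibroblast call was lost without control 2 or injury 2. In mural-like and Schwann-like cells its log2 fold changes were -1.87 ± 0.32 (SE, edgeR adjusted p = 0.0257) and -1.63 ± 0.40 (SE, edgeR adjusted p = 0.0445), lost without control 1 in mural-like cells and kept only without injury 1 in Schwann-like cells. The largest change of Fosb was in macrophage-like cells, with 382 and 204 CPM in control and injury 1 and 42.9 and 41.1 CPM in control and injury 2, a log2 fold change of -2.96 ± 0.40 (SE, edgeR adjusted p = 0.0681) that was not called.

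Junb, a Jun family subunit, was lower in the libraries numbered 2 in mural-like cells by a log2 fold change of -1.50 ± 0.25 (SE, edgeR adjusted p = 0.0237), where the levels were 6250.5 and 6703 CPM in control and injury 1 and 2811 and 1709 CPM in control and injury 2. In fibroblast-like, SGC-like and neutrophil-like cells its log2 fold changes were -1.34, -1.30 and -0.98, with edgeR adjusted p of 0.0494, 0.0108 and 0.0158. Fosl2, a Fos relative without a transactivation domain, was scarce, and its calls rested on low levels. It had 198 and 173 CPM in control and injury 1 and 50.7 and 84 CPM in control and injury 2 in endothelial-like cells, a log2 fold change of -1.54 ± 0.26 (SE, edgeR adjusted p = 0.0284), and was also lower in mural-like cells (-1.95, edgeR adjusted p = 0.0374) and neutrophil-like cells (-2.64, edgeR adjusted p = 0.00578). Jund, the subunit that most cells keep at a steady level, was called in 0 of 7 types, with log2 fold changes from -0.80 to 0.07. Without control 1 the calls of Junb and Fosl2 in mural-like cells and of Junb in neutrophil-like cells were lost, and without control 2 or injury 2 those of Junb in SGC-like and fibroblast-like cells and of Fosl2 in neutrophil-like cells. Junb in neutrophil-like cells was lost without control 2 as well.

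Among the EGR, NR4A and KLF factors, Klf2 moved in the most types. Klf2, a factor of quiescent endothelium that flow induces, had 1931 and 2407 CPM in control and injury 1 and 698 and 484 CPM in control and injury 2 in mural-like cells, a log2 fold change of -1.85 ± 0.24 (SE, edgeR adjusted p = 0.0104). In neutrophil-like cells the levels were 1094 and 939 CPM in control and injury 1 and 273 and 356 CPM in control and injury 2, with -1.86 ± 0.28 (SE, edgeR adjusted p = 0.000217) on the same scale. The 2 pairs of libraries were far apart in both types, and the neutrophil call was kept whichever library was left out. SGC-like cells (-1.70, edgeR adjusted p = 0.00538) and fibroblast-like cells (-1.28, edgeR adjusted p = 0.029) had lower Klf2 as well. Klf6 was lower in SGC-like, fibroblast-like and neutrophil-like cells, with log2 fold changes of -1.12, -0.94 and -1.82 (edgeR adjusted p = 0.0203, 0.0494 and 0.00563). Klf4 was lower in SGC-like and Schwann-like cells, by log2 fold changes of -1.29 and -1.36 (edgeR adjusted p = 0.033 and 0.0351).

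Egr1, a zinc finger factor induced by ERK signalling, had 574 and 294 CPM in control and injury 1 and 134 and 147 CPM in control and injury 2 in SGC-like cells, a log2 fold change of -1.39 ± 0.22 (SE, edgeR adjusted p = 0.00159). In mural-like cells its change was -1.24 ± 0.24 (SE, edgeR adjusted p = 0.0411). Nr4a1, an orphan nuclear receptor, was lower in mural-like cells with -1.39 ± 0.24 (SE, edgeR adjusted p = 0.0237), in Schwann-like cells with -1.0 ± 0.23 (SE, edgeR adjusted p = 0.0359) and in neutrophil-like cells with -1.13 ± 0.36 (SE, edgeR adjusted p = 0.0266). Its levels in Schwann-like cells were 902 and 666 CPM in control and injury 1 and 317 and 439.9 CPM in control and injury 2, so the libraries did not overlap there. Egr3 could not be tested, with 17 UMIs over all cells within the limits. Of the 14 calls of these factors, leaving out injury 2 ended the calls of Klf2, Klf4, Klf6 and Egr1 in SGC-like cells, of Klf2 and Klf6 in fibroblast-like cells and of Klf4 and Nr4a1 in Schwann-like cells. Without control 2, of these, Klf2 and Egr1 in SGC-like cells kept their call and the others lost it. Leaving out control 1 ended those of Klf2, Egr1 and Nr4a1 in mural-like cells, of Klf6 and Nr4a1 in neutrophil-like cells, of Klf4 in SGC-like cells and of Klf6 in fibroblast-like cells. The Nr4a1 call in neutrophil-like cells was also lost without control 2 or injury 1.

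**Figure D3:**
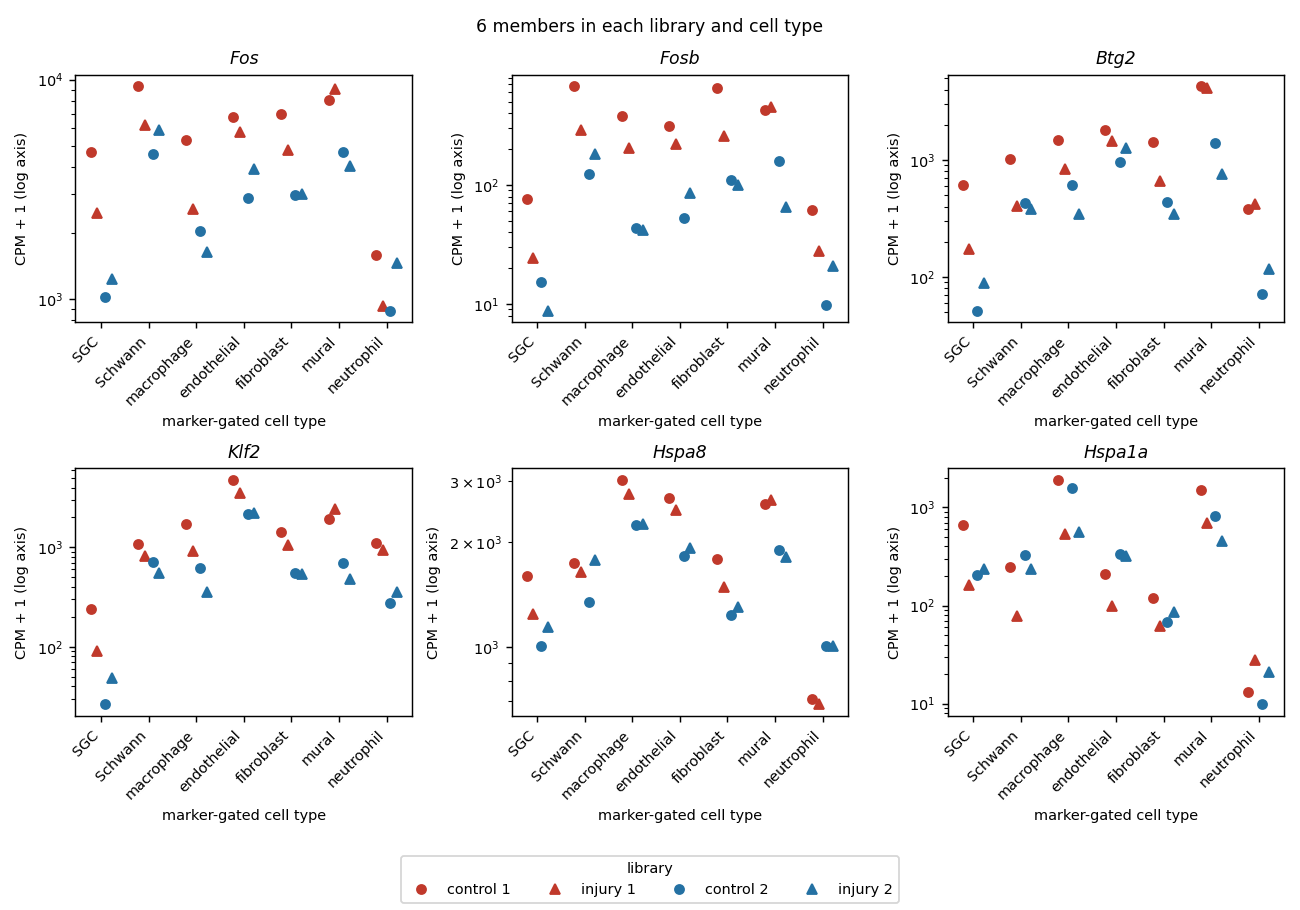
CPM + 1 (log axis) of Fos, Fosb, Btg2, Klf2, Hspa8 and Hspa1a in each library and marker-gated cell type. Circles are control, triangles injury, red libraries numbered 1 and blue libraries numbered 2. Klf2 and Fosb lie lower in blue than in red in every type shown, and macrophage-like Hspa1a is lower in both triangles than in both circles.

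The other immediate early genes encode regulators of the cell cycle, of kinases and of mRNA decay. Btg2, an antiproliferative protein that recruits deadenylases, had 611 and 171 CPM in control and injury 1 and 50.6 and 87.5 CPM in control and injury 2 in SGC-like cells, a log2 fold change of -2.08 ± 0.36 (SE, edgeR adjusted p = 0.0031). In mural-like cells it had 4306 and 4145 CPM in control and injury 1 and 1397 and 759 CPM in control and injury 2, a change of -1.94 ± 0.27 (SE, edgeR adjusted p = 0.0121). The injury 1 level was close to control 1 in mural-like cells and well under it in SGC-like cells, and both numbered 2 were lower in either type. Neutrophil-like (-2.20, edgeR adjusted p = 0.000369) and fibroblast-like cells (-1.48, edgeR adjusted p = 0.0494) also had lower Btg2. Its relative Btg1 had 725 and 619 CPM in control and injury 1 and 233 and 259 CPM in control and injury 2 in Schwann-like cells, a change of -1.39 ± 0.22 (SE, edgeR adjusted p = 0.00613), and in neutrophil-like cells its change was -1.82 ± 0.28 (SE, edgeR adjusted p = 0.000235).

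Zfp36, which binds AU-rich mRNAs and speeds their decay, had 511 and 318 CPM in control and injury 1 and 94.7 and 136 CPM in control and injury 2 in SGC-like cells, a log2 fold change of -1.66 ± 0.21 (SE, edgeR adjusted p = 0.000154), the lowest adjusted p of the members. It was also lower in mural-like (-1.56, edgeR adjusted p = 0.0113), fibroblast-like (-1.29, edgeR adjusted p = 0.029) and neutrophil-like cells (-1.39, edgeR adjusted p = 0.049), although in the last the numbers overlapped, at 316 and 107 CPM in control and injury 1 and 52.9 and 135 CPM in control and injury 2. Ier2, a nuclear protein of growth factor responses, was lower in mural-like, fibroblast-like and SGC-like cells, with log2 fold changes of -1.87, -1.73 and -1.55 (edgeR adjusted p = 0.0104, 0.0264 and 0.00297). Ier5 was lower in neutrophil-like cells (-2.56 ± 0.46 (SE, edgeR adjusted p = 0.000779)), where its levels were 292 and 201 CPM in control and injury 1 and 52.9 and 45.1 CPM in control and injury 2. Dusp1, a phosphatase of p38 and JNK, was lower in SGC-like (-0.94, edgeR adjusted p = 0.0221) and neutrophil-like cells (-1.81, edgeR adjusted p = 0.00389). Ier3 and Dusp6 were called in 0 types, with log2 fold changes from -1.04 to 1.13 for Ier3 and from -1.71 to 0.70 for Dusp6. Without injury 2 the calls of these genes in SGC-like, fibroblast-like and Schwann-like cells were lost, and without control 1 those in mural-like cells and those of Zfp36 and Dusp1 in neutrophil-like cells. Without control 2 the calls in fibroblast-like and Schwann-like cells, of Dusp1 in SGC-like cells and of Zfp36 in neutrophil-like cells were lost. The neutrophil calls of Btg1, Btg2 and Ier5 were kept without any 1 library.

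Of the genes of cytokine feedback, Socs3, the inhibitor of the gp130 receptor that STAT3 induces, had 973 and 752 CPM in control and injury 1 and 274 and 378 CPM in control and injury 2 in SGC-like cells, a log2 fold change of -1.29 ± 0.20 (SE, edgeR adjusted p = 0.0013), which was lost without control 2 or injury 2. In neutrophil-like cells its change was -2.44 ± 0.68 (SE, edgeR adjusted p = 0.0136) on levels of 85.1 and 161 CPM in control and injury 1 and 44.1 and 10 CPM in control and injury 2, and the call was kept only without control 2. The neutrophil-like cells held 74532 to 199575 UMIs per library, so these Socs3 levels rest on few molecules. Nfkbia, the inhibitor that holds NF-kappaB in the cytoplasm, was lower in neutrophil-like cells with -1.18 ± 0.27 (SE, edgeR adjusted p = 0.00445). Cebpb, a factor of myeloid and acute phase genes, was lower there too, at 2340.2 and 1677 CPM in control and injury 1 and 468 and 917 CPM in control and injury 2, with -1.72 ± 0.31 (SE, edgeR adjusted p = 0.000937). Both calls were kept whichever library was left out, and the log2 fold changes of Nfkbia and Cebpb were negative in all 7 types.

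Chaperones gave 3 calls. Dnajb1, the HSF1-induced HSP40 that delivers clients to HSP70, was the only chaperone called lower. In fibroblast-like cells it had 299.8 and 166 CPM in control and injury 1 and 84.9 and 89 CPM in control and injury 2, a log2 fold change of -1.50 ± 0.25 (SE, edgeR adjusted p = 0.0331). In SGC-like cells it had 262 and 91 CPM in control and injury 1 and 44.6 and 50 CPM in control and injury 2, a change of -1.36 ± 0.29 (SE, edgeR adjusted p = 0.0142). Its fold change was negative in 7 of 7 types, both calls were lost without injury 2, and the first was lost without control 2 as well. Hsp90aa1, the inducible cytosolic HSP90, was higher in the libraries numbered 2 in neutrophil-like cells, at 30.4 and 148 CPM in control and injury 1 and 282 and 220.5 CPM in control and injury 2, a change of 1.59 ± 0.53 (SE, edgeR adjusted p = 0.0355) that was lost without control 1 or control 2. The neutrophil-like cells of control 1 held 164516 UMIs, so the level of Hsp90aa1 there rests on few molecules. In the other 6 types the log2 fold change of Hsp90aa1 ran from -0.36 to 0.28.

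The other 9 chaperones were called in 0 types. Hspa8, the constitutive HSP70, had 3023 and 2744 CPM in control and injury 1 and 2234 and 2251 CPM in control and injury 2 in macrophage-like cells and was lower without overlap in 5 types and higher in neutrophil-like cells, with log2 fold changes from -0.51 to 0.35. Hsp90ab1, the constitutive HSP90, ran from -0.29 to 0.49, and Dnaja1, a constitutive HSP40, from -0.32 to 0.12. Hspa1a and Hspa1b, the inducible HSP70 copies, went the other way in endothelial-like cells, where Hspa1a had 207 and 96.8 CPM in control and injury 1 and 334 and 316 CPM in control and injury 2, a change of 1.15 ± 0.26 (SE, edgeR adjusted p = 0.106) that was not called. The log2 fold change of Hspa1a was positive in 2 of 6 types. That of Hspa1b was positive in all 3 types tested, from 0.81 to 1.92, on 326 UMIs over all cells within the limits. Hspd1 and Hspe1, the mitochondrial chaperonin and its lid, had median log2 fold changes over types of -0.39 and -0.26, and the small chaperone Hspb1 and the HSP110 Hsph1 of 0.12 and 0.62. The fold change of Hspd1 was negative in all 6 types tested. It was lower without overlap in 5 of them, where 11.3% to 28.7% of all genes were.

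Other genes of the same pathways were counted from lists of 34 immediate early, 25 heat shock and co-chaperone and 12 cytokine feedback and C/EBP genes that were not members. Of the further immediate early genes, 7 of 26 tested were lower in SGC-like cells (edgeR), against 1.08% of all genes. The count was 6 of 21 in mural-like (0.8% of all genes), 3 of 15 in Schwann-like (1.78%) and 2 of 26 in fibroblast-like cells (0.666%). It was 1 of 25 in endothelial-like (0.325%), 1 of 6 in neutrophil-like (14.4%) and 0 of 26 in macrophage-like cells (0.0134%). The neutrophil-like count was near the share of all genes. In macrophage-like cells 11 of these 26 had an unadjusted p under 0.05 in edgeR, against 8.66% of all genes. The largest changes were those of Atf3, a stress-induced AP-1 partner, with a log2 fold change of -3.96 in SGC-like and -2.44 in mural-like cells, and of Egr2, with -2.57 in SGC-like cells. Ier5l was higher in the libraries numbered 2 in endothelial-like and fibroblast-like cells, the 2 higher calls of this list, and was chosen for mention after its values were seen. Of the further heat shock genes, Cacybp was higher in Schwann-like cells by 1.21 on the log2 scale and Hspb8 in fibroblast-like cells by 1.19, and 0 were lower in any type. Of the further cytokine feedback genes, Socs1 was lower in SGC-like cells, by a log2 fold change of -2.40, and Nfkbiz in neutrophil-like cells, by -1.96.

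Depth and mitochondrial share moved with the number in part of the types. The SGC-like cells had a median of 2531 and 3420.0 UMIs in control and injury 1 and 4334 and 4964 in control and injury 2, with median mitochondrial shares of 4.72% and 5.96% against 8.01% and 7.45%. In macrophage-like cells the median UMI counts overlapped, at 3075 and 4703 against 3275 and 4856, and the mitochondrial shares were 1.40% and 2.09% against 2.41% and 3.13%. With mitochondrial genes left out of the counts, 45 members and types were called lower against 49 with them. The part of depth in the result was not tested by gene, and what else the number stands for cannot be told apart from it. After each cell was thinned to 1000 UMIs, the SGC-like cells had a median of 11 and 4 immediate early UMIs in control and injury 1 and of 3 and 4 in control and injury 2. The 90th percentile of these cells was 34.7 and 23 UMIs against 8 and 10, so the upper tail separated the numbers while the medians of injury 1 and injury 2 were equal. In macrophage-like cells the medians were 30 and 17.5 UMIs against 11 and 8.

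The share of SGC-like cells with at least 1 Fos UMI, thinned in the same way, was 70.4% (56.4 to 82%) in control 1, 58.9% (54.4 to 63.3%) in injury 1, 46.7% (41.6 to 51.9%) in control 2 and 54.8% (48.3 to 61.2%) in injury 2, with exact 95% binomial intervals that cover counting error only. Both libraries numbered 1 were above both numbered 2, although the intervals of injury 1 and injury 2 overlapped. Without thinning the shares were 83.3% and 74.8% against 73.2% and 82.2%, which overlapped. No gated type is known to lack Fos, so no background share from free RNA could be set beside these.

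The test of the difference between types found 4 of 224 member and type pairs whose number contrast stood apart from its mean in the other 6 types, against 0.251% of all genes in Schwann-like and 2.06% in neutrophil-like cells. Dusp1 in Schwann-like cells had 599.6 and 367 CPM in control and injury 1 and 833 and 801 CPM in control and injury 2, higher in both libraries numbered 2, and its contrast lay 1.98 ± 0.31 above the mean in the other types on the log2 scale (SE, edgeR adjusted p = 0.000855). The other 3 pairs were Btg1, Ier5 and Hsp90aa1 in neutrophil-like cells. The number contrast of the other 220 pairs did not pass this test, and in SGC-like cells the test recovered 44.4% of simulated differences of 4-fold.

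Injury and control were compared in the same 206 pairs, and 0 were called by edgeR, against 0 genes called in 6 types and 0.0107% of genes in fibroblast-like cells. Each group held 1 library of each number, so the spread that this test uses includes the difference between numbers. A fit with a replicate block is given with the processing below. An unadjusted p under 0.05 was found for 8 of the 206, of which 4 were in macrophage-like cells, where 7.44% of all genes had one. DESeq2 called 1 pair, Hspa1a in macrophage-like cells, where it called 24 of 7436 genes. In that type Hspa1a had 1916 and 1571 CPM in control 1 and 2 and 534 and 557 CPM in injury 1 and 2. Both injury libraries were below both controls, whatever their number, and the log2 fold change was -1.79 ± 0.29 (SE, edgeR adjusted p = 0.351), with an adjusted p of 2.48e-05 in DESeq2. Its copy Hspa1b had 40.9 and 75.9 CPM in control 1 and 2 and 10.1 and 26.3 CPM in injury 1 and 2, a log2 fold change of -1.81 ± 0.50 (SE, edgeR adjusted p = 0.495). With 1 library left out, which leaves 1 library alone in a group, the log2 fold change of Hspa1a ran from -1.97 to -1.56. That of Hspa1b ran from -2.45 to -1.28. With no filter on low counts Hspa1a, Hspa1b and Dnajb1 were called in macrophage-like cells, among 167 of 15080 genes. In the libraries without a test, 4 of 11 chaperones were lower without overlap after injury there, against 12.6% of all genes.

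The immediate early members of macrophage-like cells had negative log2 fold changes after injury in 21 of 21 cases, with a median of -0.69 against -0.002 for all genes, and 0 passed the test in the fit of the condition alone. Jund and Ier5 were the 2 of them whose injury libraries lay below both controls, with 1856 and 1182 CPM in control 1 and 2 and 996 and 662 CPM in injury 1 and 2 for Jund, against 12.6% of all genes. Fos overlapped between conditions, at 5307 and 2036 CPM in control 1 and 2 and 2566 and 1627 CPM in injury 1 and 2, and its log2 fold change of -0.92 ± 0.54 (SE, edgeR adjusted p = 0.789) became 0.03 without control 1. Fosb changed direction with the library left out, from -0.93 to 1.57 (edgeR adjusted p = 0.0494) without control 1, since control 2 then stood alone against the injury libraries.

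In the other types the median changes between conditions were smaller than in macrophage-like cells. The median log2 fold change of the immediate early members was -0.27 in SGC-like, -0.35 in Schwann-like, -0.23 in fibroblast-like and neutrophil-like, 0.02 in mural-like and 0.10 in endothelial-like cells. Socs3 in Schwann-like cells was higher in both injury libraries. It had 1005 and 917 CPM in control 1 and 2 and 1555 and 1610.5 CPM in injury 1 and 2. Its log2 fold change was 0.68 ± 0.24 (SE, edgeR adjusted p = 0.999). Socs3 was the only 1 of 20 immediate early members higher without overlap there, and this share was below the 14.0% of all genes. The log2 fold change of Hspa1a after injury was negative in 6 of 6 types tested, macrophage-like cells included, with a median of -0.95. In Schwann-like cells Hspa1a was the 1 of 8 chaperones lower without overlap, against 11.3% of all genes. It was lower in both injury libraries in mural-like cells as well. Its levels in mural-like cells were 1498 and 809.9 CPM in control 1 and 2 and 696 and 457 CPM in injury 1 and 2. The log2 fold change was -0.97 ± 0.38 (SE, edgeR adjusted p = 1). Hspa1a and Hspb1 were the 2 of 10 chaperones lower without overlap there, against 15.5% of all genes. Neither Socs3 in Schwann-like cells nor Hspa1a in mural-like cells was called. Without control 2, control 1 stood alone, and member calls appeared in SGC-like, Schwann-like, macrophage-like and fibroblast-like cells, all lower after injury. Calls over all genes rose in the same types. Without control 1, control 2 stood alone, and the log2 fold change of Fosb was 1.57 in macrophage-like and 1.66 in endothelial-like cells. That of Hspa1b in macrophage-like cells was -2.22 in this fit. The condition contrast of a type differed from the mean of the others for 0 of 224 pairs in edgeR, with 9 at an unadjusted p under 0.05.

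**Figure D4:**
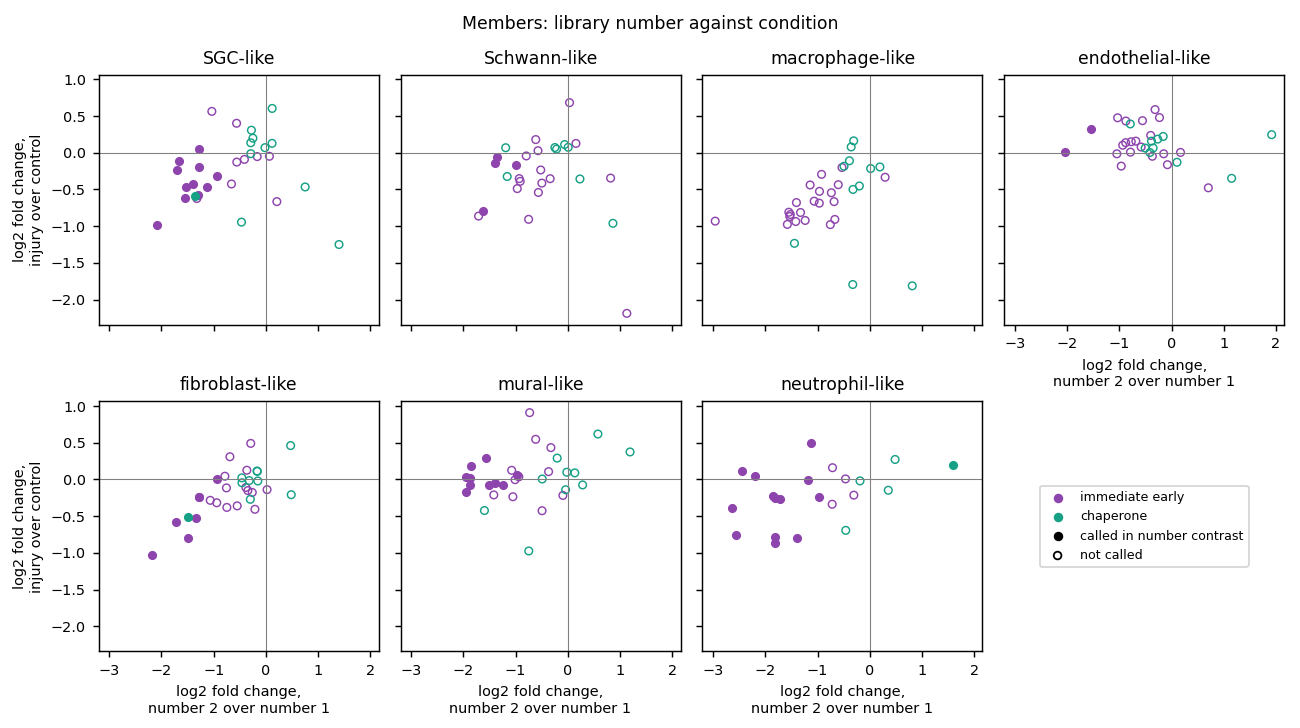
Log2 fold change of each member tested between library numbers (x axis, number 2 over number 1) and between conditions (y axis, injury over control) in the 7 cell types. Purple marks immediate early members, green chaperones, and filled points were called in the number contrast. The purple points lie mostly to the left of zero, and in macrophage-like cells they lie below zero as well, where 21 of 21 were negative after injury.

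The levels of the members also differed between cell types, in a fit that kept the library as a block. Each type was set against the mean of the other 6, and 128 of 224 pairs were called. In SGC-like cells, the glia that wrap neuronal cell bodies, 23 of 32 members were called, 22 of them lower, against 46.9% of all genes called in either direction and 19.7% lower. Klf2 was lower there with -4.02 ± 0.29 (SE, edgeR adjusted p = 2.29e-13) on the log2 scale, Cebpb with -3.59 ± 0.30 (SE, edgeR adjusted p = 1.14e-11) and Fosl2 with -3.36 ± 0.34 (SE, edgeR adjusted p = 5.42e-10). Hspe1 was the member that was higher, with 0.38 ± 0.14 (SE, edgeR adjusted p = 0.025). In Schwann-like cells, the other glia, 12 of 32 members were called, 5 higher and 7 lower, a count near the 31.0% of all genes called in either direction. The higher ones included the AP-1 subunits Fosb (1.34 ± 0.22 (SE, edgeR adjusted p = 1.60e-05)) and Fos (0.91 ± 0.17 (SE, edgeR adjusted p = 8.10e-05)) and the inhibitor Socs3 (1.39 ± 0.20 (SE, edgeR adjusted p = 1.21e-06)). Fosl2, another AP-1 subunit, lay the other way, at -2.25 from the mean of the types in log2(CPM + 1).

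Macrophage-like cells had 23 of 32 members higher and Hspb1 lower, against 32.4% of all genes higher and 15.4% lower. The highest were Hspa1a (3.04 ± 0.21 (SE, edgeR adjusted p = 9.36e-14)), Hspa1b (2.61 ± 0.34 (SE, edgeR adjusted p = 1.13e-07)), Ier5 (2.60 ± 0.17 (SE, edgeR adjusted p = 7.65e-15)) and Cebpb (2.28 ± 0.19 (SE, edgeR adjusted p = 5.64e-12)). Endothelial-like cells had 17 higher, against 28.2% of all genes, led by Hspb1 at 1183 and 921 CPM in control 1 and 2 and 1212 and 986 CPM in injury 1 and 2, which was 4.16 ± 0.17 (SE, edgeR adjusted p = 4.55e-20) above the mean of the other types. Ier3 (3.24 ± 0.20 (SE, edgeR adjusted p = 3.44e-15)), Klf4 (2.89 ± 0.20 (SE, edgeR adjusted p = 9.55e-14)) and Klf2 (2.29 ± 0.18 (SE, edgeR adjusted p = 9.64e-13)), both endothelial factors by background, followed it. Fibroblast-like cells had 10 of 32 higher, a count near the 29.0% of all genes, with Hspb1 (1.86 ± 0.19 (SE, edgeR adjusted p = 6.23e-10)) and Socs3 (1.33 ± 0.19 (SE, edgeR adjusted p = 4.85e-07)) first. Mural-like cells had 15 higher, against 21.7%, with Hspb1 (3.55 ± 0.18 (SE, edgeR adjusted p = 4.97e-17)), Cebpb (2.42 ± 0.20 (SE, edgeR adjusted p = 6.82e-12)) and Btg2 (2.01 ± 0.21 (SE, edgeR adjusted p = 2.39e-09)) first. In neutrophil-like cells 17 were lower, against 20.7%, among them Klf4 (-4.14 ± 0.71 (SE, edgeR adjusted p = 2.05e-05)) and Egr1 (-3.43 ± 0.36 (SE, edgeR adjusted p = 2.65e-09)), and Cebpb was higher (2.88 ± 0.20 (SE, edgeR adjusted p = 2.30e-13)).

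Levels over types thus had a spread far beyond that between libraries for some members and little for others. Cebpb had 81.1, 33.2, 28.6 and 42.2 CPM in control 1, injury 1, control 2 and injury 2 of the SGC-like cells and 2350.4, 2497, 1244 and 521 CPM in the mural-like cells. Dnaja1 was called in 0 of 7 types, with differences from the other types between -0.30 and 0.28 on the log2 scale. Hspb1, at 921 to 1212 CPM in the endothelial-like cells, had 0 and 17.1 CPM in control and injury 1 and 12.9 and 31.4 CPM in control and injury 2 of the Schwann-like cells. Leaving out each library in turn gave 116 to 128 calls of this kind.

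**Figure D5:**
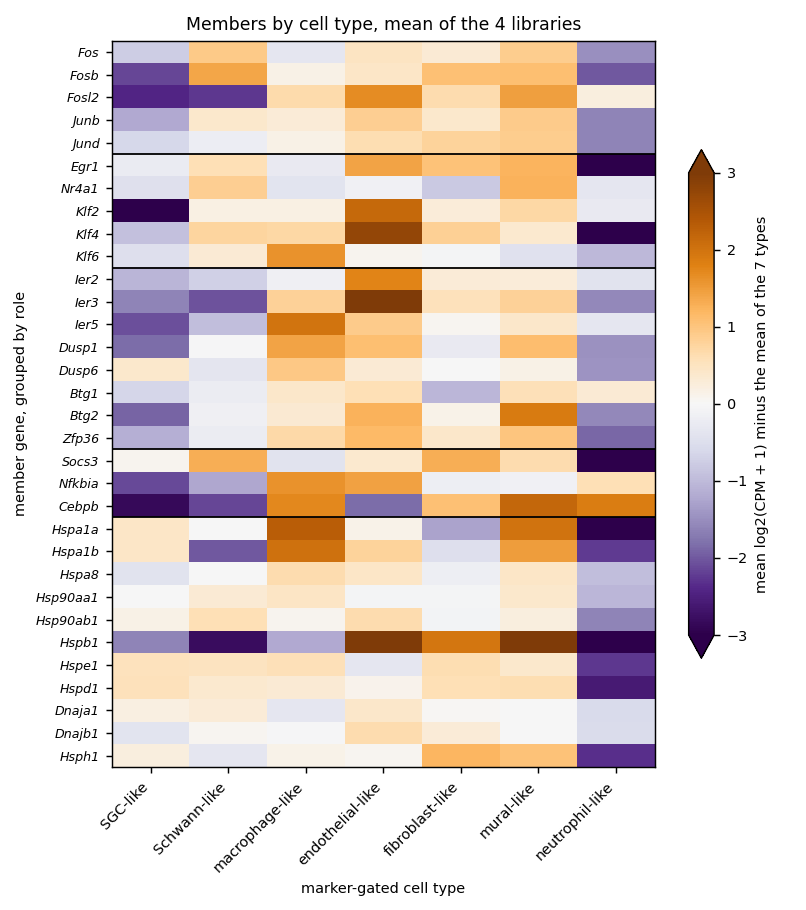
Heat map of the mean log2(CPM + 1) over the 4 libraries of 32 members (rows, grouped by role) in 7 marker-gated cell types (columns), centred on the mean of the types. Orange marks a higher level, as for Hspb1 in endothelial-like and mural-like cells and Hspa1a in macrophage-like cells, and purple a lower one, as for Klf2 and Cebpb in SGC-like cells.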

How the data were processed

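Whole DRG cells were captured on the 10x Chromium system. Per the labels and the methods, the authors aligned reads to mm10 with Cell Ranger and deposited raw UMI counts per gene and barcode, before their own filters and CPM scaling in Partek. Cells with 600 to 15000 UMIs, 500 to 4000 genes and under 10% mitochondrial UMIs were kept, the limits the study used also against doublets, and no doublet caller was run here. A cell joined the type with the most detected markers of 10 if it had at least 3 and led the next type by 2. Types with at least 10 cells in each library were tested. Counts summed per library and type (cell UMI totals of 4293865 to 9139674 per library) were compared with edgeR 4.0.16 (TMM, filterByExpr, quasi-likelihood test, Benjamini-Hochberg adjustment, threshold 0.05) in R 4.3.3, and with DESeq2 1.42.0 as an alternative. P-values measure the spread between libraries, which may be partly technical. Library number and condition were each fitted alone, and type levels and differences between types in a fit with a library block. In the fit of the number that spread includes the difference between conditions, and in the fit of the condition that between numbers. In the fits with a library block it is what the terms of the fit leave over. Simulated 4-fold changes between library numbers were recovered at 63.9% (mural-like) to 96.5% (neutrophil-like). The simulation gave all genes the same fixed dispersion and no difference between conditions. Members that vary more between libraries may be recovered less often, and recovery in the comparison of conditions was not simulated. The members and lists were chosen with earlier results of these data known. All members were named, called ones with their values, and of other pathway genes the 3 largest called changes per list and comparison. Alternatives were other size factors, no filter, a stricter gate (5 markers, lead of 4), a cleaner gate (at most 1 marker of any other type), every barcode, each library left out, a replicate block and, added after seeing the data, mitochondrial genes left out.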

Additional observations from a re-analysis of the deposited data

Results flagged for a closer look

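The number contrast of 4 members differed between cell types in edgeR's interaction test, each type set against the mean of the other 6. Dusp1 in Schwann-like cells was higher in the libraries numbered 2, and its contrast was 1.98 above the mean of the other types on the log2 scale (adjusted p = 0.000855). Hsp90aa1 in neutrophil-like cells stood 1.75 above (adjusted p = 0.0257), with 30.4 and 148 CPM in control and injury 1 and 282 and 220 CPM in control and injury 2. Btg1 and Ier5 in neutrophil-like cells stood at -1.17 (adjusted p = 0.0188) and -1.98 (adjusted p = 0.0466). The neutrophil-like cells numbered 19 to 40 and held 74532 to 199575 UMIs per library, so low levels there rest on few molecules. In this comparison 2.06% of all genes were called in these cells.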

How the results depend on the processing

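With 49 member calls lower in the libraries numbered 2, the count was 84 with no filter on low counts and 18 with the stricter gate. That gate gave 0 in SGC-like and 0 in mural-like cells, where 12 of 7225 and 2 of 4026 genes were called in all. The cleaner gate gave 32, and Schwann-like and mural-like cells were left out of its fits per type, with under 10 cells in a library. The count was 7 when a log2 fold change of 2 was also required, where calls over all genes were not counted. It was 26 to 94 when 1 library was left out, and 41 to 69 under the other settings. Calls over all genes, in either direction, moved too. With no filter their number rose in each type except neutrophil-like cells, from 160 of 9303 to 776 of 16215 in fibroblast-like cells. In neutrophil-like cells it fell from 373 of 1393 to 291 of 10414. With the cleaner gate it fell in SGC-like, macrophage-like and endothelial-like cells and rose in fibroblast-like and neutrophil-like cells. Over the types it fell without injury 2 and rose without injury 1. Over the settings, 478 repeated tests of a called member kept the call, 152 lost it and 0 changed sign. Against 0 calls between conditions, DESeq2 gave 1 and no filter 3. All were in macrophage-like cells, where these settings called 24 of 7436 and 167 of 15080 genes. Leaving out 1 library gave member calls in part of the types, where the calls over all genes rose too. Number differences correlated across genes between control and injury, at 0.25 to 0.64 by type, but neither the labels nor the methods say that the number pairs the samples. With a replicate block 9 members were called between conditions, all lower after injury in macrophage-like cells (Hspa1a, Hspa1b, Dnajb1, Jund, Klf2, Btg2, Ier5, Klf4 and Ier2, edgeR adjusted p from 3.89e-06 for Hspa1a to 0.0414 for Ier2). Calls over all genes in these cells rose as well, to 298 of 7436 in either direction, against 0 without the block. The cleaner gate gave 8 differences of the number contrast between types against 4. That joint fit kept all 7 types, with 9 and 4 Schwann-like cells in control 2 and injury 2 and 4 mural-like cells in injury 2. Calls over all genes were not counted in it. The thinned share of SGC-like cells with a Fos UMI was 13.9 percentage points higher in the libraries numbered 1, against 1.40 without thinning. The cause of these changes was not tested. With 2 libraries a group, part of the simulated 4-fold changes between numbers was missed in each type (recovery 63.9% to 96.5%, and 44.4% for a difference between types in SGC-like cells). Changes between conditions were not simulated, and 1 library can set a call.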

Other observations

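Of 360 deposited barcodes of the neuron-like type, 73 were within the limits on UMIs, genes and mitochondrial share. Over all barcodes, neuron-like Fos was at 273 and 139 CPM in control and injury 1 and 188 and 155 CPM in control and injury 2, and Hspa8 at 3157, 3195, 3187 and 2930 CPM in the same order. Hsp90aa1 had 1532 and 2479 CPM in control and injury 1 and 1379 and 1558 CPM in control and injury 2, so injury 2 was close to control 1. The share of all genes that separate by condition was not counted in these cells. Hsp90ab1 had 2570, 2346, 2363 and 2125 CPM in the same order. Fosb was at 35.1, 10.9, 12.4 and 7.6 CPM, from 18 to 50 UMIs per library. None of these was tested, as control 1 and injury 1 held 5 neuron-like cells each within the limits.

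The T cell-like type was found mostly in control 1, with 64 of 78 cells. Junb was at 3582 CPM there, from 730 UMIs, Hspa8 at 2841 CPM and Btg1 at 2071 CPM, whereas Fos was at 461 CPM, from 94 UMIs. No comparison between libraries could be made for these cells.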
